A study of Mus musculus with 6 samples.

Results

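The genes described here are 10 transcripts tied to the first steps of lymphocyte formation: Dntt, Il7r, Rag1, Satb1, Ighm, Ikzf1, Tcf3, Sox4, Cd52 and Ccr9. They were taken by symbol, 10 of the 35275 genes in the deposited FPKM table (reads scaled to gene length and to the total of the library). Read counts were present for 9 of them among the 18368 genes of the count table, and Rag1 had FPKM values only. RNA came from small numbers of haematopoietic stem cells (HSCs), the self-renewing cells at the root of blood formation, sorted from bone marrow of adult mice. The 3 mutant libraries came from mice of the genotype written Ramp-/- in the labels and titled Ramp1 Mut, and the 3 wild-type libraries from Ramp1+/+ mice. Ramp1 encodes the accessory subunit of the receptor for the neuropeptide CGRP. The labels give neither the strain, the sex nor the part of the gene removed, and no other allele or agent is named. They do not say whether the libraries of a group come from different mice, so every p-value here reflects spread among libraries, which may be technical.

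HSCs do not make antibodies or T cell receptors, but some of their descendants begin to transcribe lymphoid genes before they commit to a lineage, a state called lymphoid priming. Transcription factors such as Ikaros (Ikzf1), E2A (Tcf3), Sox4 and Satb1 act early, already in stem cells and multipotent progenitors. The recombination enzymes (Rag1, Dntt), the interleukin 7 receptor (Il7r) and the homing receptor Ccr9 follow in lymphoid-primed and common lymphoid progenitors. In bulk RNA, fewer cells of a type and less RNA per cell cannot be told apart.

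The libraries held between 22796771 and 26734561 reads in the count table. Ramp1 itself had 1.35 to 3.53 FPKM in mutant and 88.3 to 91.4 FPKM in wild-type libraries, so the targeted gene separated the groups. The HSC markers Kit, Procr and Hlf were detected in every library, with 260.04 to 460.5 FPKM of Kit in mutant and 322.9 to 461.2 FPKM in wild-type libraries. Procr had 55.9 to 71.96 FPKM in mutant and 51.9 to 61.98 FPKM in wild-type libraries, and Hlf had 45.8 to 75.7 FPKM in mutant and 49.3 to 80.05 FPKM in wild-type libraries. Replicate 1 of both groups stood apart from the others. It held 6137 Y-linked reads in mutant and 6527 in wild type, where replicates 2 and 3 held at most 2, and its Xist reads numbered 5 and 10 against 1456 to 3540 elsewhere. The summed level of 15 neutrophil markers was also lowest in replicate 1, at 185 FPKM in mutant and 50.9 FPKM in wild type, and reached 1191 FPKM in mutant replicate 3.

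The promoters of 5 members are shown first, because they hold the widest contrast in CpG content between abundant members and members near 0. Each window runs from 250 bases before to 50 bases after the most upstream RefSeq start (GRCm38.p6, the assembly also called mm10), is written 5′ to 3′ on the gene's strand, and has CpG dinucleotides in capitals. Tcf3 (chr10:80433586-80433885, minus strand) and Ikzf1 (chr11:11685675-11685974, plus strand) were among the abundant members, and Il7r (chr15:9529827-9530126, minus strand), Dntt (chr19:41029025-41029324, plus strand) and Rag1 (chr2:101649483-101649782, minus strand) were near 0.
Tcf3: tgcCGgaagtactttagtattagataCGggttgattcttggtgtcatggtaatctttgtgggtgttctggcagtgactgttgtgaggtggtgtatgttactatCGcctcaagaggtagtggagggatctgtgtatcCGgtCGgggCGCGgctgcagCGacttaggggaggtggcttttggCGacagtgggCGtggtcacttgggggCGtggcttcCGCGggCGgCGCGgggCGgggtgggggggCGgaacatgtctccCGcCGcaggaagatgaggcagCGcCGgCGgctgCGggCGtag
Ikzf1: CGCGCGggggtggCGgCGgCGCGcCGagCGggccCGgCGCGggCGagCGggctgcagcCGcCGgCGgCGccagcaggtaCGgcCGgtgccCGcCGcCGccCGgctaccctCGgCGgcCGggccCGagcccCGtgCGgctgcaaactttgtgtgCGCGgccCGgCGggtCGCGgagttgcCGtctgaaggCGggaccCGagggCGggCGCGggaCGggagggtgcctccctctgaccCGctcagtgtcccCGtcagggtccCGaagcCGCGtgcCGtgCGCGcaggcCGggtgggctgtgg
Il7r: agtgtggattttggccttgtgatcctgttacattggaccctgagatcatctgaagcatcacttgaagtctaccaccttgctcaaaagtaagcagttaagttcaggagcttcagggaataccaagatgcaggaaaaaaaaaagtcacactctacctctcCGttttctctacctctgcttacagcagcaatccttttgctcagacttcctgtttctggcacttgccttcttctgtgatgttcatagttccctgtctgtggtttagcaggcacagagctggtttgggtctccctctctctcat
Dntt: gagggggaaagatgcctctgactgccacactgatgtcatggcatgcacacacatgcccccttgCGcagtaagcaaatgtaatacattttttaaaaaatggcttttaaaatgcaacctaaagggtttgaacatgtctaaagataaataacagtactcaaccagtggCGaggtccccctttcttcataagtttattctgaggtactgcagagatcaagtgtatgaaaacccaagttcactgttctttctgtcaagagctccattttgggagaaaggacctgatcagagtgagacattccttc
Rag1: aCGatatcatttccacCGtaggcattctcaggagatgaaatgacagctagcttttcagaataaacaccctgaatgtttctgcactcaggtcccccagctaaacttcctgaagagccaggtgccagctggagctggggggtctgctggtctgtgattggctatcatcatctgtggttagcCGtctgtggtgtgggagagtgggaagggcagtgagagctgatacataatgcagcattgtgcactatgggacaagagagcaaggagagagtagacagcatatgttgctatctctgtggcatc

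CpG dinucleotides numbered 25 in the Tcf3 window and 52 in the Ikzf1 window, against 1 in Il7r, 2 in Dntt and 3 in Rag1. Of 27025 promoters of this length, 1 per gene, 18.4% held at least as many as Tcf3 and 0.562% at least as many as Ikzf1. The Ccr9 window, also of a gene near 0, held 4. Sox4 held 12 and Satb1, whose table lists 5 starts, held 8 at its most upstream one. Sequences matched for 8 members, and Ighm and Cd52 had no entry. Over all genes with a promoter the median was 21 CpG for the 8630 genes at 1 FPKM or more. It was 4 for the 7091 genes under 0.1 FPKM. The contrast among the members thus ran in the direction seen over all genes, and nothing here is particular to them. Sox4 (12) and Satb1 (8), both above 1 FPKM, lay under the median of 21. The E-box CANNTG, which reads the same on both strands and is the kind of site E proteins bind, was present 4 times in the Rag1 window, 3 times in Dntt and in Il7r, 1 time in Tcf3 and 0 times in Ikzf1, while 72.1% of all promoters held at least 1. The letters TGGGAA, the core of Ikaros sites, were sought on both strands and occurred 1 time each in the Rag1 and Sox4 windows and in none of the other 6 windows, against 25.5% of all promoters. A match is a description of letters and not of binding.

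**Figure D1:**
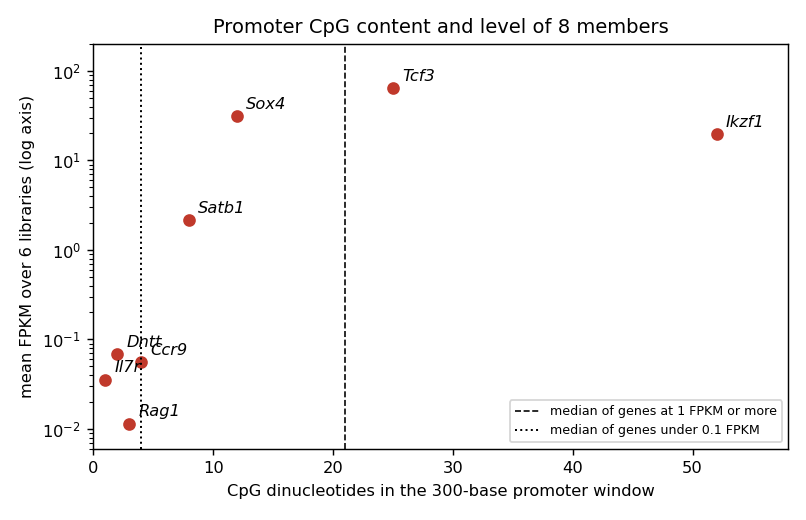
Mean FPKM over 6 libraries (log axis) against the number of CpG dinucleotides in the 300-base promoter window for the 8 members with a sequence. The 4 members near 0 hold 1 to 4 CpG and the 4 above 1 FPKM hold 8 to 52. The dashed line is the median of genes at 1 FPKM or more (21) and the dotted line that of genes under 0.1 FPKM (4).

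By mean level over the 6 libraries the order was Tcf3 (63.9 FPKM), Sox4 (31.0), Ikzf1 (19.6), Cd52 (9.87), Ighm (7.85), Satb1 (2.13), Dntt (0.0680), Ccr9 (0.0558), Il7r (0.0356) and Rag1 (0.0115). Tcf3 lay above 93.2% of the 20422 genes with any FPKM above 0, and Rag1 above 4.43%. Tcf3 did not overlap Sox4 in any library, and Ikzf1 did not overlap Cd52. Sox4 and Ikzf1 overlapped at the edge, since the lowest Sox4 value (23.8 FPKM) was below the highest Ikzf1 value (24.6 FPKM). Cd52 and Ighm overlapped, as did Ighm and Satb1, and so did the 4 genes below 0.2 FPKM. The gap between Satb1, lowest at 1.28 FPKM, and Dntt, highest at 0.151 FPKM, separated transcription factors and surface or immunoglobulin genes from recombination enzymes and lymphoid receptors. With the longer exon lengths of GENCODE M21 the means of Cd52 and Ighm were 4.27 and 5.93 FPKM, which turns their order round.

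**Figure D2:**
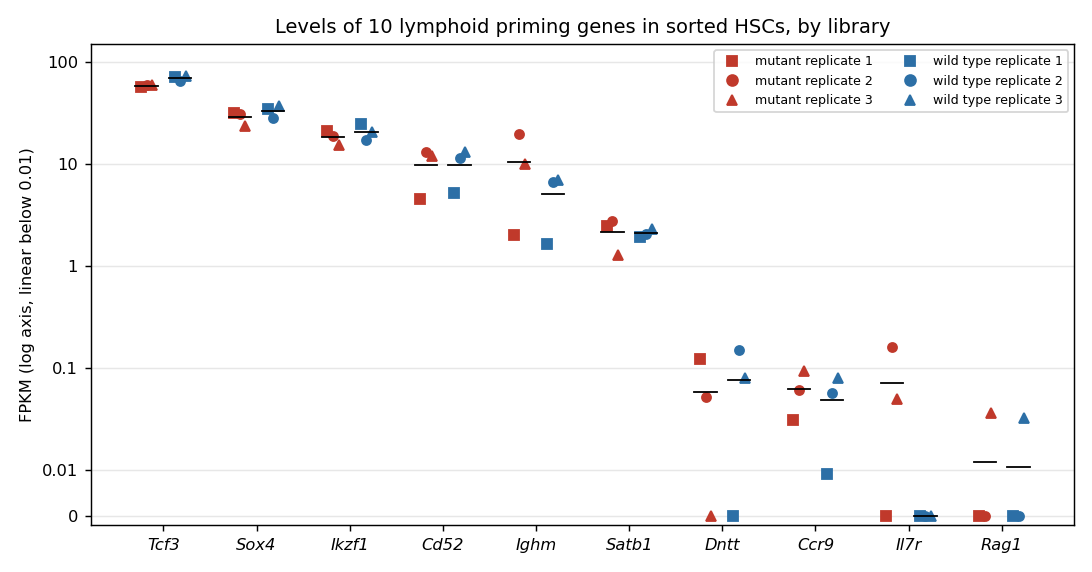
FPKM of the 10 members in each library, on an axis that is logarithmic above 0.01 and linear below it, with mutant libraries in red left of wild-type libraries in blue and a bar at each group mean. The 6 members on the left lie between 1.28 and 72.3 FPKM, and the 4 on the right at or below 0.163 FPKM.

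In the test across the whole table, 6 members passed the filter on low counts (Tcf3, Sox4, Ikzf1, Satb1, Cd52 and Ighm) and 4 did not (Dntt, Ccr9, Il7r and, outside the count table, Rag1). None of the 6 passed an adjusted p of 0.05 (edgeR quasi-likelihood test, Benjamini-Hochberg over 14443 genes), and 0 passed with DESeq2. The background was 3 genes called, or 0.0208% of those tested. At an unadjusted p under 0.05 there was 1 member, Tcf3, where the share over all genes was 3.99%. Of the 6, 3 had fold changes above 0 and 3 below (49.9% of all genes were below 0), with a median log2 fold change of -0.08, beside 0.00030 over all genes tested.

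The E protein gene Tcf3 came closest to a difference. Its products E12 and E47 pair with other helix-loop-helix factors and switch on lymphoid genes. Tcf3 (ENSMUSG00000020167, protein-coding, minus strand, chromosome 10, 80409514 to 80433647 in mm10) had 56.8, 59.1 and 59.9 FPKM in mutant libraries, against 70.8, 64.7 and 72.3 FPKM in wild-type libraries. All 3 mutant values lay below all 3 wild-type values, with the narrowest spread among the 6 tested members. Groups without overlap in this direction were found for 4.38% of all genes, and in either direction for 10.3%. The means were 58.6 ± 1.63 FPKM in mutant and 69.2 ± 4.05 FPKM in wild-type libraries (SD, n = 3 each). The log2 fold change was -0.24 (SE 0.09, 95% interval -0.44 to -0.04; edgeR unadjusted p = 0.0235, adjusted p = 0.999), which did not pass. Permuting the library labels exactly (two-sided) gave p = 0.1, which is the floor for 3 against 3 libraries. Within replicate numbers the difference of log2 CPM was -0.33, -0.14 and -0.24. Because the groups did not overlap, any pairing of the libraries gives differences below 0, so their shared sign adds nothing.

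Sox4, an HMG-box factor needed for early B cell formation, was the second most abundant member. Sox4 (ENSMUSG00000076431, a gene on the minus strand of chromosome 13, 28948919 to 28953713) had 31.6, 30.9 and 23.8 FPKM in mutant HSCs, against 34.3, 28.5 and 36.8 FPKM in wild-type HSCs. The groups overlapped, and mutant replicate 3 was the lowest library. The log2 fold change was -0.20 (SE 0.14, 95% interval -0.52 to 0.11; edgeR adjusted p = 0.999). Without mutant replicate 3 it was -0.09. The annotation places exons of Gm26735 on the other strand over part of it, and that gene was at 0 in all 6 libraries.

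Ikaros, the zinc finger protein of Ikzf1, opens the lymphoid programme in multipotent progenitors. Ikzf1 (ENSMUSG00000018654, plus strand, chromosome 11, 11685003 to 11772926) had 20.95, 19.0 and 15.4 FPKM in mutant libraries, against 24.6, 17.3 and 20.4 FPKM in wild-type libraries. The highest and lowest values belonged to wild-type replicate 1 and mutant replicate 3, and the groups overlapped. Its log2 fold change was -0.17 (SE 0.16, 95% interval -0.53 to 0.19; edgeR adjusted p = 0.999), and -0.04 without wild-type replicate 1.

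Satb1, a chromatin organiser that promotes lymphoid output of HSCs, was transcribed at a low level. Satb1 (ENSMUSG00000023927, minus strand, chromosome 17, 51736187 to 51833290) had 2.50, 2.74 and 1.28 FPKM in mutant libraries, against 1.92, 2.06 and 2.30 FPKM in wild-type libraries, from 198 to 458 reads each. Mutant replicates 1 and 2 were the highest of all and mutant replicate 3 the lowest. The log2 fold change was 0.05 (SE 0.29, 95% interval -0.62 to 0.73; edgeR adjusted p = 0.999). It was 0.32 without mutant replicate 3 and -0.16 without mutant replicate 2, so its direction rests on single libraries. It was -0.04 without mutant replicate 1 and -0.012 without wild-type replicate 1.

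**Figure D3:**
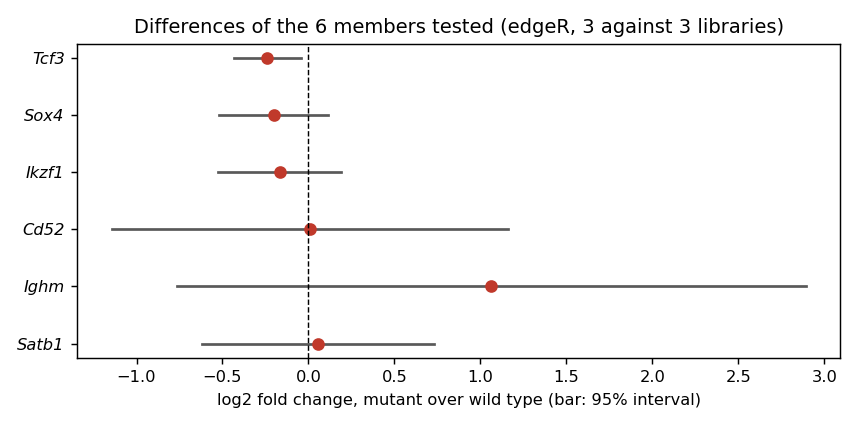
Log2 fold change of mutant over wild type for the 6 tested members (points) with 95% intervals (bars), from the edgeR fit of 3 against 3 libraries. The interval of Tcf3 lies below 0 before adjustment and the other 5 span 0, with the widest for Ighm (-0.76 to 2.89).

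Ighm varied most between libraries among the tested members. It encodes the constant region of the IgM heavy chain, and transcripts that start inside the locus without a joined variable segment are known from progenitors before rearrangement. These gene counts do not tell such transcripts from those of B cells. Ighm (ENSMUSG00000076617, an immunoglobulin constant gene on the minus strand of chromosome 12, 113418950 to 113422730) had 2.002, 19.6 and 10.1 FPKM in mutant libraries, against 1.66, 6.66 and 7.002 FPKM in wild-type libraries. Replicate 1 was far below replicates 2 and 3 in both groups, and mutant replicates 2 and 3 were above every wild-type library. The range over the 6 libraries was 3.55 on the log2 CPM scale, and 4.78% of tested genes had a range at least as wide.

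Between genotypes the Ighm means were 10.6 ± 8.83 FPKM in mutant and 5.11 ± 2.99 FPKM in wild type (SD, n = 3 each). The log2 fold change was 1.06 (SE 0.79, 95% interval -0.76 to 2.89; edgeR unadjusted p = 0.215, adjusted p = 0.999). Within replicate numbers the difference of log2 CPM was 0.25 in replicate 1, 1.54 in replicate 2 and 0.56 in replicate 3. Without both libraries with Y-linked reads the log2 fold change was 1.13 (edgeR unadjusted p = 0.0208, adjusted p = 0.9997), and without mutant replicate 2 it was 0.26.

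Markers of mature B and plasma cells had mixed patterns over the libraries. Igkc, the kappa light chain constant gene, had 0.543, 36.8 and 10.9 FPKM in mutant libraries, against 0.488, 12.3 and 1.46 FPKM in wild-type libraries. It was highest in mutant replicate 2, as Ighm was, and lowest in both replicates 1. The B cell surface gene Ms4a1 had 0, 106 and 35 reads in mutant libraries, against 0, 69 and 0 reads in wild-type libraries. The other light chain gene tested, Iglc2, was highest in mutant replicate 1 (26 reads), and Jchain in wild-type replicate 3 (43 reads). Of 14 mature B and plasma markers 8 were tested, and 3 of these were highest in mutant replicate 2, 3 in mutant replicate 3, 1 in mutant replicate 1 and 1 in wild-type replicate 3. Of the 8, 6 had a fold change above 0, and 0 passed. The summed level of the whole list was 190 to 420 FPKM in mutant and 196 to 385 FPKM in wild-type libraries, most of it from Cd74 and Xbp1, which HSCs and myeloid cells also express. The isotype genes Ighg1 and Igha were at 0 in every library, and Pax5, which B cells require, was too. The part of these cells in the Ighm values was not tested. Markers of mature T and NK cells summed to 34.3 to 58.6 FPKM in mutant and 46.5 to 74.5 FPKM in wild-type libraries, most of it from Nkg7, and were lowest in mutant replicate 2.

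Cd52 was low in replicate 1 of both genotypes, and its group means were alike. It encodes a small glycoprotein anchored on the surface of lymphocytes and several other blood cells. Cd52 (ENSMUSG00000000682, minus strand, chromosome 4, 134082448 to 134095082) had 4.52, 13.2 and 11.9 FPKM in mutant libraries, against 5.22, 11.4 and 12.99 FPKM in wild-type libraries. Replicate 1 lay far below the other libraries in each group, by 1.48 on the log2 CPM scale in mutant and 1.22 in wild type. The group means were 9.87 ± 4.67 FPKM in mutant and 9.87 ± 4.11 FPKM in wild type (SD, n = 3 each). Its log2 fold change was 0.0089 (SE 0.50, 95% interval -1.14 to 1.16; edgeR adjusted p = 0.9995), so differences inside that interval were not detectable. It was below 0 without mutant replicate 2 (-0.26), mutant replicate 3 (-0.16) or wild-type replicate 1 (-0.30). The lowest library was replicate 1 in mutant and in wild type alike for 13.7% of all genes tested, for 12 of 15 neutrophil markers and for 4 of 8 tested mature B and plasma markers. The same held for 1 of 6 tested mature T and NK markers, 4 of 12 tested monocyte and dendritic cell markers and 0 of 10 erythroid markers. Since the sorted cells of replicate 1 also differed from the others in Y-linked reads, sex and any other difference of these libraries cannot be told apart.

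The genes whose pattern over the 6 libraries lay closest to Ighm, by the root mean square difference of centred log2 CPM, were Slpi (0.30), Myl10 (0.36), Nckap5 (0.39) and Pirb (0.40). Myl10, a myosin light chain gene, was abundant at 47.7, 624 and 177 FPKM in mutant libraries, against 27.3, 118 and 190 FPKM in wild-type libraries. Slpi, a protease inhibitor gene, had 0.801, 5.29 and 2.30 FPKM in mutant libraries, against 0.315, 1.79 and 1.76 FPKM in wild-type libraries. Both were lowest in replicate 1 and highest in mutant replicate 2, as Ighm was, which follows from their choice by likeness over these same libraries. Closest to Cd52 were the pseudogene Rpl35a-ps2 (0.20), Nid2 (0.21), Fcna (0.22) and Cap2 (0.23), the first of which may share reads with its parent gene. Nid2, a basement membrane gene, had 0.296, 0.988 and 1.097 FPKM in mutant libraries, against 0.315, 0.683 and 0.867 FPKM in wild-type libraries.

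**Figure D4:**
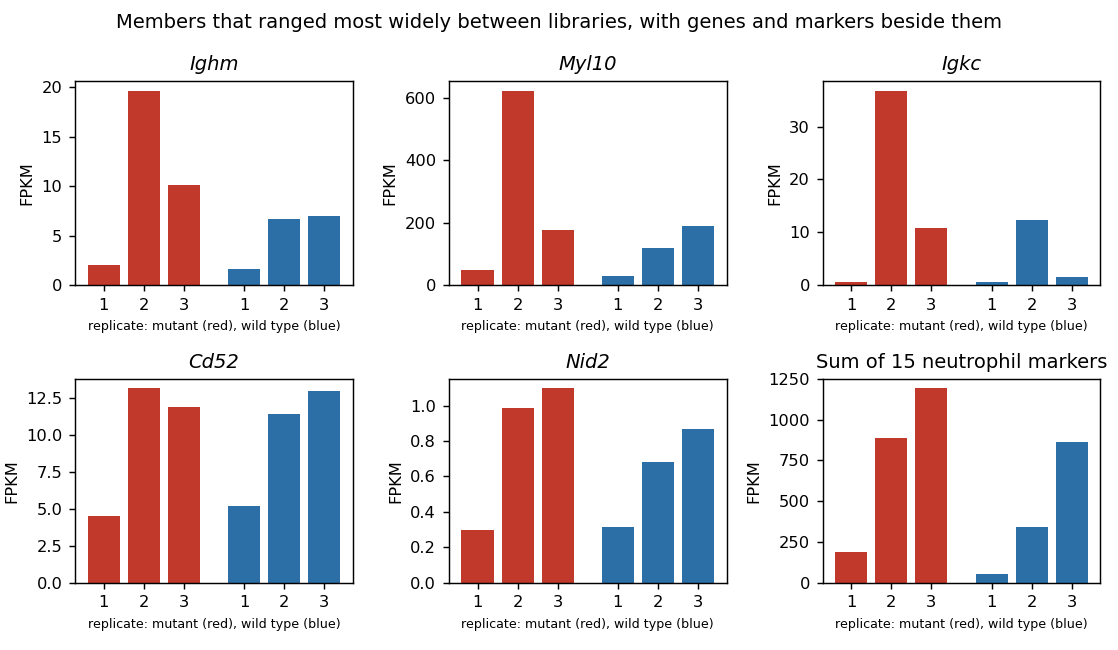
FPKM in each library of Ighm and Cd52, of genes with a like pattern (Myl10, Nid2), of Igkc and of the summed neutrophil markers, with mutant replicates 1 to 3 (red) left of wild-type replicates 1 to 3 (blue). Replicate 1 is the lowest of its group in all 6 panels, and Ighm, Myl10 and Igkc are highest in mutant replicate 2. Myl10 and Nid2 were picked for their likeness, so their patterns add nothing to those of Ighm and Cd52.

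The enzymes that act on antigen receptor genes were at the edge of detection. Dntt, the template-free polymerase that adds bases at recombination joints (ENSMUSG00000025014, plus strand, chromosome 19, 41029275 to 41059523), had 6, 3 and 0 reads in mutant libraries, against 0, 8 and 4 reads in wild-type libraries. Each group held 1 library at 0, and the sums were 9 reads in mutant and 12 in wild type. Rag1, the catalytic subunit of the recombinase, lies on the minus strand of chromosome 2 (ENSMUSG00000061311, 101638282 to 101649501 in GENCODE M21). It had 0, 0 and 0.0366 FPKM in mutant libraries, against 0, 0 and 0.0324 FPKM in wild-type libraries. With the GENCODE M21 exon length of 6608 bases these values equal 6 reads in mutant replicate 3 and 5 in wild-type replicate 3. Replicate 3 was thus the only one with Rag1 signal in either group. Genes outside the count table had no reads in mutant replicates 1 and 2, so mutant signal of such a gene could lie in replicate 3 only. Rag1 shares 80 exon bases with B230118H07Rik on the same strand, a gene with a mean of 19.3 FPKM. Some of the few Rag1 reads may therefore belong to that gene. Rag2, the partner and neighbour of Rag1, had 1, 0 and 16 reads in mutant libraries, against 2, 3 and 9 reads in wild-type libraries. It was also highest in replicate 3 of each group. A difference between genotypes was not detectable for these genes at this depth.

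The lymphoid receptors were as low. Il7r, the alpha chain that lymphoid progenitors need to respond to interleukin 7 (ENSMUSG00000003882, minus strand, chromosome 15, 9506161 to 9529876), had 0, 14 and 4 reads in mutant libraries, against 0, 0 and 0 reads in wild-type libraries. Of the 18 mutant reads (exact Poisson 95% interval 10.7 to 28.4), 77.8% came from replicate 2, which was also highest for Ighm and Igkc. With the wild-type sum at 3 reads, its floor, and the mutant sum at that interval's lower end, mutant was 3.52-fold higher. This bound covers counting error only and leaves the spread between libraries out. Genes outside the count table had no reads in mutant replicates 1 and 2, so Il7r had counts only through mutant replicate 2. The bound is therefore no evidence of a difference between genotypes. Without mutant replicate 2 the mutant group held 4 reads, close to that floor, and with no filter on low counts the adjusted p was 0.9999 (edgeR). Ccr9, the receptor that guides progenitors to the thymus and gut (ENSMUSG00000029530, plus strand, chromosome 9, 123678439 to 123783457), had 3, 7 and 10 reads in mutant libraries, against 1, 6 and 8 reads in wild-type libraries. The lowest value of each group was that of replicate 1, as for Ighm and Cd52, on counts too small to separate the groups. The annotated span of Ccr9 shares exon bases with Gm17200 on the same strand and with Slc6a20a on the other, so some of its reads may belong there.

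Genes that work with the members were examined in 6 lists, and 0 of their tested genes passed the adjusted threshold. The smallest adjusted p in each list was 0.999 (edgeR), and DESeq2 called 0 of the 7 with an unadjusted p under 0.05. These 7 were 2 of 20 tested lymphoid-primed progenitor genes, 2 of 14 interleukin 7 pathway genes, 1 of 10 relatives and 2 of 8 T lineage genes. None was among the 13 recombination and 14 B lineage genes tested. Over all genes tested the share was 3.99%, and no test of the lists as sets was run. The relatives of the E proteins, Ikaros, Sox4 and Satb1 had 10 tested genes, 5 with a fold change above 0 and 5 below, and a median log2 fold change of 0.06. Id2, whose protein binds E proteins and keeps them off DNA, had 18.9, 12.6 and 14.1 FPKM in mutant libraries, against 8.94, 8.10 and 5.46 FPKM in wild-type libraries. All mutant values lay above all wild-type values, as for 5.87% of all genes, with a log2 fold change of 1.01 (SE 0.25; edgeR unadjusted p = 0.00412, adjusted p = 0.999). Over the alternatives its adjusted p ranged from 0.0701 (DESeq2) to 0.9999 (edgeR, no filter on low counts). Sox12, a close relative of Sox4, had a log2 fold change of -0.37 and Id1 one of 0.65. The most abundant of the list, Cux1 and Tcf4, had 0.25 and -0.02. Sox11 was at 0 in every library.

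In the list of lymphoid-primed progenitor genes all 20 members were tested, 12 with a fold change above 0 and 8 below (median log2 fold change 0.03). Flt3, the cytokine receptor that marks lymphoid-primed progenitors, had 18.9, 10.7 and 12.5 FPKM in mutant libraries, against 23.6, 11.0 and 19.3 FPKM in wild-type libraries. These values overlapped and were named after they were seen. Notch1, the receptor that starts T cell fate, had 5.55, 5.17 and 5.59 FPKM in mutant libraries, against 3.48, 3.61 and 5.16 FPKM in wild-type libraries (log2 fold change 0.42, SE 0.16; edgeR unadjusted p = 0.0344, adjusted p = 0.999). The groups did not overlap, though mutant replicate 2 and wild-type replicate 3 nearly met. Tespa1, a gene of T cell receptor signalling, had 0.880, 0.883 and 0.404 FPKM in mutant libraries, against 2.63, 1.73 and 1.29 FPKM in wild-type libraries, and Zeb2 a log2 fold change of 0.23. The abundant members Lmo2 and Cd34 had log2 fold changes of -0.10 and -0.06.

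The interleukin 7 pathway beyond Il7r was well transcribed. Of its 14 genes, all tested, 8 had a fold change above 0 and 6 below, with a median log2 fold change of 0.14. Jak1, the kinase that binds Il7r, had 150 to 194 FPKM in mutant and 149 to 166 FPKM in wild-type libraries, and the shared gamma chain gene Il2rg had 41.9 to 60.3 FPKM in mutant and 39.2 to 45.9 FPKM in wild-type libraries. So the receptor's partner chain and kinase were abundant where Il7r itself had at most 0.163 FPKM. Cish, a feedback inhibitor induced by Stat5, had 31.6, 23.6 and 33.5 FPKM in mutant libraries, against 25.9, 16.2 and 19.0 FPKM in wild-type libraries (log2 fold change 0.54, SE 0.19; edgeR unadjusted p = 0.0226, adjusted p = 0.999). Crlf2, which joins Il7r in the receptor for TSLP, had a log2 fold change of 0.45 without overlap of the groups, and the feedback inhibitor Socs1 had 0.52. Mcl1, a survival gene, had 0.13.

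Of the recombination and end joining genes 13 of 14 were tested, 6 above 0 and 7 below (median log2 fold change -0.04). Xrcc6 and Xrcc5, the Ku subunits, act in end joining outside lymphocytes too. They had 42.9 to 49.8 and 32.3 to 32.7 FPKM in mutant libraries, against 48.2 to 53.9 and 35.2 to 37.8 FPKM in wild-type libraries. Xrcc5 did not overlap between groups (log2 fold change -0.17; edgeR unadjusted p = 0.106). Hmgb1 and Hmgb2, DNA-bending cofactors of the recombinase, had log2 fold changes of -0.07 and 0.03, and Prkdc had 0.13.

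Genes of B and T lineage specification were mostly low. In the B list 14 of 20 were tested, 11 above 0 and 3 below (median log2 fold change 0.25). Cd79b, a chain of the B cell receptor, stood out at 31.8 to 47.1 FPKM in mutant and 35.6 to 42.1 FPKM in wild-type libraries, while its partner Cd79a had 0.963, 2.39 and 2.30 FPKM in mutant libraries, against 0.135, 1.96 and 0.734 FPKM in wild-type libraries. Cd72 had a log2 fold change of -0.11, Bach2 of 0.29 and Foxo1 of 0.09. Ebf1, the factor that commits cells to the B lineage, had 0, 7 and 5 reads in mutant libraries, against 20, 13 and 9 reads in wild-type libraries, too few for the test. In the T list 8 of 18 were tested, 6 above 0 and 2 below (median 0.17), and Bcl11b was at 0 in every library. Hes1, a Notch target, had 1.52, 5.61 and 4.01 FPKM in mutant libraries, against 0.618, 1.37 and 1.31 FPKM in wild-type libraries (log2 fold change 1.76, SE 0.55; edgeR unadjusted p = 0.0134, adjusted p = 0.999). Lck, a kinase of T cell receptor signalling, had 6.87, 6.98 and 7.19 FPKM in mutant libraries, against 9.46, 8.53 and 9.17 FPKM in wild-type libraries (log2 fold change -0.37, SE 0.15; edgeR unadjusted p = 0.0423, adjusted p = 0.999). Gata3 had a log2 fold change of 0.18 and Lat, the most abundant of the list, of 0.02.

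**Figure D5:**
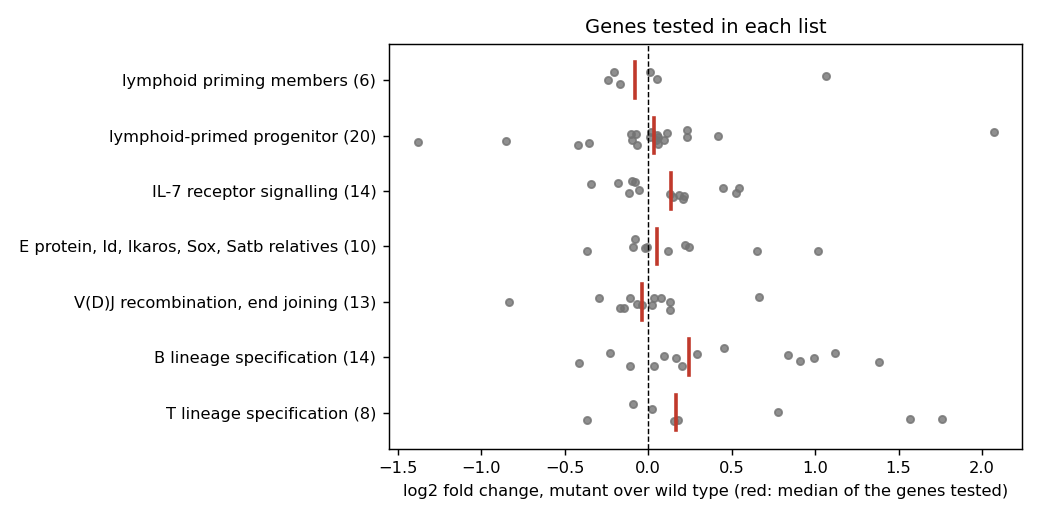
Log2 fold changes of mutant over wild type for the tested genes of the members and of the 6 companion lists (points, with the number tested in brackets) and the median of each list (red bars). The medians lie between -0.08 and 0.25, and no point passed the adjusted threshold.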

How the data were processed

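RNA sequencing measured 6 libraries of sorted mouse HSCs, 3 mutant and 3 wild type, grouped by the genotype in the labels. Tools listed in the submitters' processing notes, with no role or order, are STAR, CASAVA, DESeq2 and HTSeq 0.6.1, and the build is mm10. The annotation release, and whether strand was used in counting, are not given in the sources used here. Per the file headers, the authors deposited raw read counts per gene, size-factor-normalized reads (a signal unit, not used here), FPKM, and their own log2 fold changes and p-values (not used here). FPKM values equal CPM per kilobase of the listed gene length. Depth was 22796771 to 26734561 counted reads per library, and exact intervals and floors cover counting error only.

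The deposited counts of the 18368 genes in the count table were tested with edgeR 4.0.16 (R 4.3.3). The test used TMM scaling, filterByExpr (14443 genes kept), the quasi-likelihood F test and Benjamini-Hochberg adjustment, with a two-sided threshold of 0.05. Genes outside that table had no reads in mutant replicates 1 and 2 and could not be tested. Shares over all genes leave them out. Standard errors were derived from the fold change and the root of its F statistic. Log2 CPM used a prior count of 2. The test was checked on simulated counts with known changes. Alternatives were DESeq2 1.42.0, limma 3.58.1 on log2 FPKM with pseudocounts of 1 and 0.1, other scalings and filters, a replicate block, a covariate for Y-linked reads, and libraries left out. Sequences came from the RefSeq promoter table (GRCm38.p6), exon lengths and overlaps from GENCODE M21. Among the 198 symbols in the lists, 2 were not found and 2 were resolved through their gene identifiers.

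The members, lists and tests were chosen with earlier results of these data known. Named companion genes were those past the threshold or else the 3 of smallest unadjusted p at 1 FPKM or more, and the 2 of highest mean FPKM per list. The 2 members of widest range were given their 4 most alike genes. Other genes were named after their values were seen. One HSC marker is not reported here.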

Additional observations from a re-analysis of the deposited data

How the results depend on the processing

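No member passed an adjusted p of 0.05 in any of 90 refits (6 tested members, 15 alternatives), where the lowest adjusted p was 0.599, for Tcf3. Tcf3, Sox4, Ikzf1 and Ighm kept the sign of their fold change in all 15. Satb1 and Cd52, close to 0, did not. With limma on log2(FPKM + 0.1) their log2 fold changes were -0.014 and -0.040, and with limma on log2(FPKM + 1) Cd52 had -0.032. With the replicate block they were -0.0089 and -0.036, with Y-linked reads as covariate Cd52 had -0.036, and without both libraries with Y-linked reads Satb1 had -0.11. Leaving out each library in turn gave -0.16 to 0.32 for Satb1, -0.30 to 0.36 for Cd52, 0.26 to 1.56 for Ighm, -0.27 to -0.04 for Ikzf1, -0.27 to -0.20 for Tcf3 and -0.29 to -0.09 for Sox4. The cause of these changes was not tested. Dntt, Il7r and Ccr9 had a value only with no filter on low counts, where their log2 fold changes were -0.41, 5.55 and 0.36 (edgeR adjusted p = 0.9999 each; a fold change against wild-type libraries at 0, as for Il7r, depends on the prior count). Rag1 was outside the count table and had none.

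Replicate numbers did not pair the libraries: the correlation of deviations from the group means, across genes, was 0.14 for number 1, 0.0018 for number 2 and -0.09 for number 3, and only number 1 correlated best with its own. Of all genes, 1 was higher and 2 were lower in mutant; with the replicate block 1 was lower, as with Y-linked reads as covariate (1) and without both libraries with them (1). DESeq2 called 20 higher and 22 lower, no filter on low counts 2 higher, and limma on log2(FPKM + 0.1) 4 higher. Leaving out each library gave 1 to 2 higher and 1 to 4 lower. The order of levels was the same for 9 of 9 members by CPM per kilobase. That is no check on the order, because FPKM here equals CPM per kilobase of the listed length. With GENCODE M21 exon lengths, chosen after seeing the data, 5 of 9 held their place. Cd52 and Ighm, and Ccr9 and Il7r, changed places. The 7 companion genes with an unadjusted p under 0.05 (3.99% of all genes tested had such a p) had the same sign in 105 refits and passed in 0. They were picked by that p from the main fit of the same libraries, so their shared sign is no independent check.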

Other observations

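In the companion and marker lists, 16 lymphoid genes had reads in the count table but too few for the test. Of these, 6 were highest in mutant replicate 2, the library with most of the Il7r reads, and 4 in wild-type replicate 1. The other libraries were highest for 3 genes (mutant replicate 3) or 1 gene each. Listed genes outside the count table are not in this tally. Reads outside that table numbered 0 in mutant replicates 1 and 2, against 4301 to 4764 in the other libraries. By FPKM, such lymphoid genes were highest in mutant replicate 3 (Ptcra, Il2ra and T and NK genes named below) or in wild-type libraries (Id4, Vpreb2, Igll1 and Zap70). Every listed gene with FPKM outside the count table was at 0 in mutant replicates 1 and 2. The tally thus leaves out genes without reads in those libraries, which favours mutant replicate 2. The lead of mutant replicate 2 therefore holds for genes of the count table only, and no conclusion is drawn from it. The following genes were chosen after their values were seen, 3 of the 6 and then 2 that were highest elsewhere. Ikzf3, the Ikaros family member of later B cells, had 0, 38 and 4 reads in mutant libraries, against 0, 1 and 2 reads in wild-type libraries. The B cell kinase gene Blk had 0, 31 and 5 reads in mutant libraries, against 0, 6 and 18 reads in wild-type libraries. Cd3g, a chain of the T cell receptor complex, had 0, 24 and 4 reads in mutant libraries, against 0, 0 and 0 reads in wild-type libraries. Ebf1 was highest in wild-type replicate 1 (20 reads), and Cd3d, another chain of the T cell receptor complex, had 0, 10 and 2 reads in mutant libraries, against 13, 0 and 0 reads in wild-type libraries. Replicate 1 of both groups had 0 reads for 8 of the 16 genes, as for Il7r. The T cell gene Cd8a and the NK cell gene Ncr1 were at 0 in every library, but other mature T and NK markers were not. Gzma (1.102 FPKM), Gzmb (0.341), Cd8b1 (0.313) and Klrd1 (0.263) had signal in mutant replicate 3 only. Il2rb was highest there too (0.2395 FPKM), above wild-type replicate 1 (0.044 FPKM). Prf1 had 19 reads in mutant replicate 1 and 0 elsewhere. All of these but Prf1 lie outside the count table, where mutant replicates 1 and 2 held no reads. The part of mature lymphocytes in these values was not tested.

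Ly6d, which marks progenitors turning to the B lineage, had 17, 71 and 78 reads in mutant libraries, against 0, 33 and 5 reads in wild-type libraries (log2 fold change 2.07, SE 1.19; edgeR adjusted p = 0.999). Vpreb1, the surrogate light chain gene of early B cells, had 23, 44 and 33 reads in mutant libraries, against 5, 16 and 16 reads in wild-type libraries, without overlap (log2 fold change 1.38, SE 0.61; edgeR adjusted p = 0.999). Both were also named after their values were seen, and neither passed.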
